A study of Mus musculus with 23 samples.

Results

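The 9 genes described here encode ligands of the epidermal growth factor (EGF) receptor and ERBB receptors in mouse liver. They are the ligand genes *Areg*, *Ereg*, *Hbegf*, *Tgfa*, *Btc* and *Egf* and the receptor genes *Egfr*, *Erbb2* and *Erbb3*, matched by symbol in a count table of 27179 genes, and all 9 were found. ERBB receptors are tyrosine kinases of the cell surface. A bound ligand brings receptors together in pairs, which switches on the RAS, RAF, MEK and ERK chain and the phosphoinositide kinase pathway. The ligands are made as membrane-anchored precursors and are set free by ADAM proteases. In liver the EGF receptor is abundant on hepatocytes and is known for its part in regeneration after injury, and several ligand genes are themselves induced by ERK signalling.

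Liver tissue was taken from 15 female mice, away from any visible tumor, and its RNA was sequenced. All mice carried *Alb-Cre*, in which the albumin promoter drives the recombinase in hepatocytes, and *Trp53* flx/flx. The 6 Ctrl mice had wild-type *Braf* and *Icmt* flx/+. The 6 ABpIF/+ mice had the *Braf*CA/+ knock-in allele, which gives *Braf*V600E after recombination, with *Icmt* flx/+, and the 3 ABpIF/F mice had the same *Braf* allele with *Icmt* flx/flx. *Icmt* encodes the enzyme that methylates the C-terminal cysteine of RAS and other prenylated proteins. None of these groups carried intact *Trp53* alone or *Braf*CA/+ with full *Icmt*, recombination in cells other than hepatocytes was not measured, and the labels used here give no ages or treatment. ABpIF/+ vs Ctrl asks what *Braf*V600E changed, and ABpIF/+ vs ABpIF/F asks what loss of the second *Icmt* allele changed. ABpIF/F and Ctrl mice differ in *Braf* and *Icmt* together.

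The libraries held from 24742910 (malpa387) to 32262649 (BG175) reads assigned to genes. CPM below are counts scaled to library size after TMM scaling of the libraries, given as mean ± SD over mice. *Icmt* was 30.8 ± 2.72 CPM in Ctrl (n = 6), 32.7 ± 3.49 in ABpIF/+ (n = 6) and 15.8 ± 0.711 in ABpIF/F mice (n = 3). The hepatocyte gene *Alb* was at 76790 CPM or more in every mouse, and none of the 14 hepatocyte markers found was at 3 counts or fewer throughout a group. Several properties moved with the groups. A score over circadian clock genes, made from these same libraries, lay between -7.06 and -3.54 in ABpIF/F mice. It was at -5.56 in the Ctrl mouse malpa387, at 0.542 to 1.89 in the other Ctrl mice and at 2.16 to 2.76 in ABpIF/+ mice. The ABpIF/+ mice thus overlapped with neither other group, and a fit with this score can hardly tell group and clock state apart. The strain label of all mutant mice was shared by only 1 Ctrl mouse, BG3. With this label as a covariate, a comparison with Ctrl therefore sets the mutant mice against BG3 alone. Calls lost and signs changed in such fits cannot be read as an effect of strain. The ABpIF/F mouse BG38 had the highest level of 6 of the 9 genes within its group, so values without it are given. The part of time of day, strain and BG38 in the results was not tested beyond the values given.

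Of the 6 ligand genes, 3 lie in a cluster on mouse chromosome 5 of GRCm38, in the order *Ereg* (91074622-91093646, plus strand), *Areg* (91139599-91148432, plus strand) and *Btc* (91357261-91402994, minus strand), and *Epgn*, the epigen gene, precedes them (91027464-91035215). The other genes are dispersed. *Tgfa* is on chromosome 6 (86195223-86275719, plus strand) and *Egf* on chromosome 3 (129677565-129755316, minus strand). *Egfr* (16752203-16918158, plus strand) and *Erbb2* (98412470-98437716, plus strand) share chromosome 11, and *Erbb3* is on chromosome 10 (128567523-128589652, minus strand). These are whole-gene spans from the GENCODE M21 annotation.

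The promoters of *Areg*, *Btc*, *Tgfa* and *Erbb2* are shown because the levels of these genes differed between groups without overlap in at least 1 comparison. Each is the 250 bases before the RefSeq transcription start on GRCm38.p6, in the gene's own direction, 5′ to 3′, and matched motifs are in capitals. The windows are chr5:91139349-91139598 on the plus strand for *Areg*, chr5:91402995-91403244 on the minus strand for *Btc*, chr6:86194972-86195221 on the plus strand for *Tgfa* and chr11:98412234-98412483 on the plus strand for *Erbb2*.
Areg: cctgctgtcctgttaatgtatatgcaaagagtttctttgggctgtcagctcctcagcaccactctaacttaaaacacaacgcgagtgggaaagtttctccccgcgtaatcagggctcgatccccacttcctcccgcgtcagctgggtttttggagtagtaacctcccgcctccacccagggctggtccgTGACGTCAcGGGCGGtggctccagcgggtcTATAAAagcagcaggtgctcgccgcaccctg
Btc: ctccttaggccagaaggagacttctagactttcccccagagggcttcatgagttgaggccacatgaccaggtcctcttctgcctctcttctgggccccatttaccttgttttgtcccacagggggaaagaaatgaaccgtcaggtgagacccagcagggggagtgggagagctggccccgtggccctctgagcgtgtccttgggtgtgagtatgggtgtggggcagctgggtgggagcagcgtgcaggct
Tgfa: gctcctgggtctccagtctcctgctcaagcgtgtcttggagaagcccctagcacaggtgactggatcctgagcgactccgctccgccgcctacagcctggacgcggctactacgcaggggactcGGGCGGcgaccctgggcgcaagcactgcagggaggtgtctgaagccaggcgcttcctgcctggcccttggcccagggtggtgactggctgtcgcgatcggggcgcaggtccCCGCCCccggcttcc
Erbb2: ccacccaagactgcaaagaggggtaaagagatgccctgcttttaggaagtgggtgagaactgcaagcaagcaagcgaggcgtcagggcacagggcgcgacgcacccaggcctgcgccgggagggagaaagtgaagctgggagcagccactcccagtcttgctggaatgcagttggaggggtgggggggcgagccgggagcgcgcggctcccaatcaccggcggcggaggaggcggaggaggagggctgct

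The 6 motifs searched on both strands were the cyclic AMP response element (CRE, TGACGTCA), the AP-1 site (TGANTCA), an ETS core (CCGGAA), the TATA box (TATAAA), the GC box (GGGCGG) and the E-box (CACGTG). The *Areg* window held a CRE from -61 to -54, a GC box from -52 to -47 and a TATA box from -31 to -26, counted back from the start. The *Tgfa* window held GC boxes from -126 to -121 and, on the other strand, from -15 to -10. None of the motifs was in the *Btc* or the *Erbb2* window, and no matches overlapped. Over 32851 promoter windows of the same length, 1.55% held the CRE, 6.75% the AP-1 site, 12.4% the TATA box, 32.7% the GC box, 12.0% the ETS core and 6.02% the E-box. Windows of chromosome 18 were left out of this search and of the 32851. Entries were found for 6 of the 9 genes, including *Egf* and *Egfr* but not *Hbegf*.

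*Areg*, *Hbegf* and *Btc* were upregulated in ABpIF/+ compared to Ctrl livers, and *Hbegf* and *Btc* were upregulated in ABpIF/F compared to Ctrl livers. *Tgfa*, the most abundant transcript per length among the 6 ligands, was also higher in every mutant mouse than in every Ctrl mouse, but by less than 2-fold. *Ereg* and *Egf* did not pass the test in any comparison. Among the receptors only *Erbb2* was called, lower in ABpIF/+ than in ABpIF/F livers, and this call rested on BG38. A gene was called at an edgeR adjusted p under 0.01 and at least a 2-fold change. In whole tissue, fewer cells of a type and less RNA per cell cannot be told apart.

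**Figure D1:**
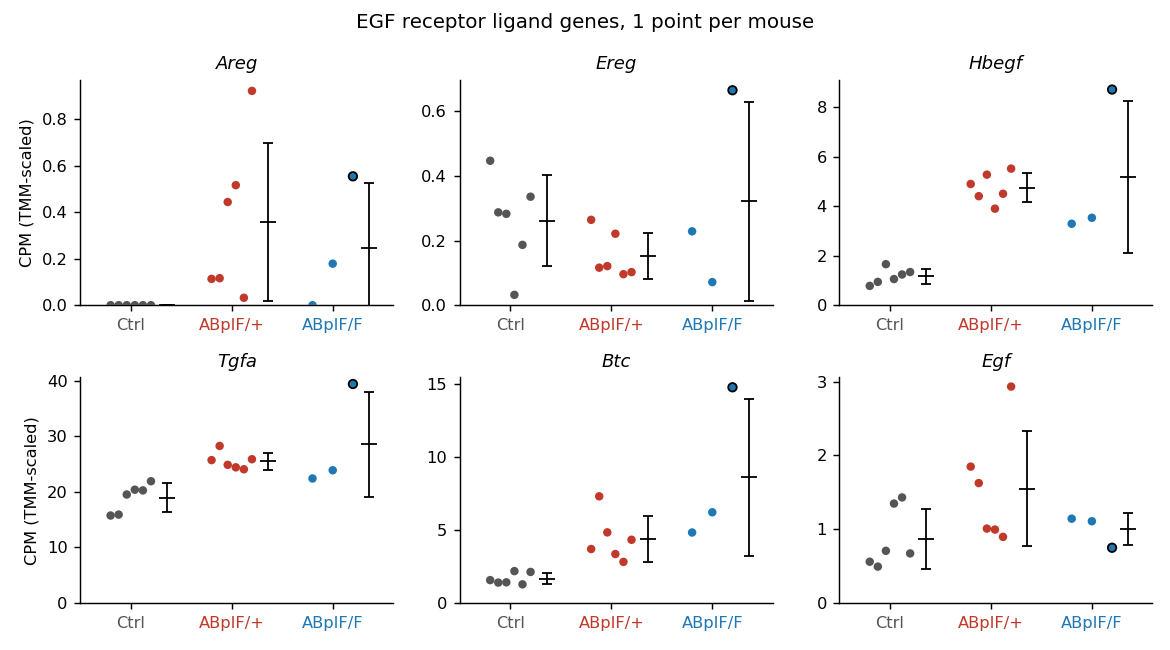
CPM (TMM-scaled, linear axis from 0) of the 6 ligand genes, 1 point per mouse with mean ± SD beside each group (Ctrl n = 6, ABpIF/+ n = 6, ABpIF/F n = 3) and the mouse BG38 outlined in black. *Hbegf*, *Tgfa* and *Btc* are higher in all 9 mutant mice than in the 6 Ctrl mice, *Areg* is at 0 in every Ctrl mouse, and the points of *Ereg* and *Egf* overlap between groups.

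*Hbegf* encodes heparin-binding EGF-like growth factor, a ligand of EGFR and ERBB4. In the 6 Ctrl mice its lowest, median and highest levels were 0.782, 1.15 and 1.66 CPM, and in the 6 ABpIF/+ mice they were 3.91, 4.71 and 5.53 CPM. The ABpIF/F mice BG183, BG90 and BG38 had 3.30, 3.54 and 8.72 CPM. Every mutant mouse was thus above every Ctrl mouse, and BG38 was the highest of all. The mean rose 4.04-fold in ABpIF/+ vs Ctrl (95% interval 2.82 to 5.79, log2 fold change 2.01, standard error 0.25, edgeR adjusted p = 1.64e-06). The rise in ABpIF/F vs Ctrl was 2.14 on the log2 scale (standard error 0.28, edgeR adjusted p = 9.37e-06), or 1.54 without BG38 (edgeR adjusted p = 0.000288). ABpIF/+ and ABpIF/F livers did not differ beyond their spread, with a log2 fold change of -0.13 and an interval from -0.71 to 0.45.

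*Btc* encodes betacellulin, which binds EGFR and ERBB4. Its lowest, median and highest levels were 1.27, 1.49 and 2.18 CPM in Ctrl and 2.81, 4.01 and 7.31 CPM in ABpIF/+ mice. BG183, BG90 and BG38 had 4.83, 6.22 and 14.8 CPM. Both mutant groups lay wholly above Ctrl, while the ABpIF/F mice overlapped with the upper part of the ABpIF/+ range. *Btc* rose 2.64-fold in ABpIF/+ vs Ctrl (95% interval 1.77 to 3.93, edgeR adjusted p = 0.000497) and 5.19-fold in ABpIF/F vs Ctrl (95% interval 3.30 to 8.16, edgeR adjusted p = 1.06e-05). Without BG38 the latter log2 fold change was 1.73 in place of 2.38 and stayed past the threshold (edgeR adjusted p = 0.000354). In ABpIF/+ vs ABpIF/F the log2 change was -0.98 (standard error 0.31, edgeR adjusted p = 0.0304), which was not called, and without BG38 it was -0.33 (edgeR adjusted p = 0.678). With the strain label in the model the log2 fold changes against Ctrl were 1.65 and 2.63, and neither passed (edgeR adjusted p = 0.0889 and 0.0126).

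*Areg* encodes amphiregulin, a ligand of EGFR that is induced in injured and inflamed epithelia. No read was counted on it in any of the 6 Ctrl mice. The ABpIF/+ mice BG55, BG40, BG31, BG88, BG175 and BG30 had 3, 3, 11, 14, 1 and 27 counts, which is a mean of 0.357 ± 0.339 CPM (SD, n = 6). BG183, BG90 and BG38 had 0, 5 and 20 counts, with a mean of 0.244 ± 0.283 CPM (SD, n = 3). All ABpIF/+ mice had a read and no Ctrl mouse did, whereas 1 of the 3 ABpIF/F mice was at 0 like Ctrl. Set against a floor of 3 counts in each Ctrl library, *Areg* was at least 3.34-fold higher in ABpIF/+ mice and was called upregulated (edgeR adjusted p = 0.00241). BG55, BG40 and BG175 were themselves at 3 counts or fewer, so that the mean rested on BG31, BG88 and BG30. In ABpIF/F mice *Areg* was at least 2.28-fold higher and was not called (edgeR adjusted p = 0.0130). This bound rested on BG38, since the other ABpIF/F mice had 0 and 0.179 CPM against a mean Ctrl floor of 0.107 CPM, and without BG38 the edgeR adjusted p was 0.134. These counts are low, the floor covers counting error only, and the ABpIF/+ call was lost under the quasi-likelihood method of edgeR 4 (adjusted p = 0.0125), with the strain label (0.285) and with the clock gene score (0.01004) in the model.

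*Tgfa* encodes transforming growth factor alpha, which binds EGFR and is made by hepatocytes in regenerating liver. Its lowest, median and highest levels were 15.7, 19.9 and 21.9 CPM in Ctrl and 24.1, 25.3 and 28.3 CPM in ABpIF/+ mice. BG183, BG90 and BG38 had 22.4, 23.9 and 39.4 CPM. No mutant mouse fell into the Ctrl range, and the spread within Ctrl and ABpIF/+ was narrow. The level was 1.35-fold higher in ABpIF/+ than in Ctrl mice (95% interval 1.12 to 1.62, edgeR adjusted p = 0.0152) and was not called. ABpIF/F mice were 1.51-fold above Ctrl (95% interval 1.21 to 1.88). That difference passed on p alone (edgeR adjusted p = 0.00837) but was under 2-fold, and without BG38 the log2 change was 0.29 (edgeR adjusted p = 0.274).

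*Egf* encodes EGF itself, which is made mainly outside the liver, and *Ereg* encodes epiregulin, a ligand of EGFR and ERBB4. *Egf* had lowest, median and highest levels of 0.492, 0.689 and 1.43 CPM in Ctrl and of 0.895, 1.32 and 2.93 CPM in ABpIF/+ mice, and 1.14, 1.11 and 0.748 CPM in BG183, BG90 and BG38. The groups overlapped, and the log2 fold change of 0.82 in ABpIF/+ vs Ctrl (standard error 0.35) had an edgeR adjusted p of 0.0948. *Ereg* was near the limit of detection, with 1 to 12 counts in Ctrl, 3 to 7 in ABpIF/+ and 2 to 24 in ABpIF/F mice. Its log2 fold changes against Ctrl were -0.75 in ABpIF/+ (95% interval -1.98 to 0.49) and 0.33 in ABpIF/F mice (95% interval -1.06 to 1.72), so that changes of more than 2-fold were not excluded at this depth.

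Levels of different genes were compared as CPM per kilobase of exon. In Ctrl livers the ligands ranked *Tgfa* (2.92 ± 0.393), *Btc* (0.367 ± 0.0872), *Hbegf* (0.242 ± 0.0647), *Egf* (0.0769 ± 0.0365) and *Ereg* (0.0634 ± 0.0341 CPM per kilobase, SD, n = 6), with *Areg* at 0. The ranges over mice of *Btc* and *Hbegf* overlapped, as did those of *Egf* and *Ereg*, whereas *Tgfa* stood clear of all. In ABpIF/+ livers *Hbegf* (0.984 ± 0.124) and *Btc* (0.972 ± 0.354) were level below *Tgfa* (3.94 ± 0.234 CPM per kilobase, SD, n = 6), and *Areg* (0.294 ± 0.279) came before *Egf* (0.138 ± 0.0692) with overlapping ranges. In ABpIF/F livers *Btc* (1.91 ± 1.19) preceded *Hbegf* (1.07 ± 0.634 CPM per kilobase, SD, n = 3). Their ranges over mice overlapped, but within each of the 3 mice *Btc* was above *Hbegf*.

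Summed over the 6 ligands, the level was 3.67 ± 0.487 CPM per kilobase in Ctrl, 6.36 ± 0.703 in ABpIF/+ and 7.75 ± 3.56 in ABpIF/F mice (SD, n = 6, 6 and 3). The Ctrl mice reached at most 4.27 and the ABpIF/+ mice at least 5.39. BG183, BG90 and BG38 had 5.36, 6.05 and 11.8, so that the first pair lay within or just under the ABpIF/+ range and BG38 lay far above it. *Tgfa* made up 79.6% ± 1.03 of the sum in Ctrl, 62.3% ± 4.55 in ABpIF/+ and 58.9% ± 6.77 in ABpIF/F mice. The share of *Hbegf* was 6.56% ± 1.35, 15.5% ± 1.85 and 13.4% ± 1.67 in these groups, and that of *Btc* was 10.0% ± 1.85, 15.0% ± 4.07 and 23.4% ± 3.90 (SD, n = 6, 6 and 3). The shares describe transcripts of unequal length and say nothing of the proteins.

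**Figure D2:**
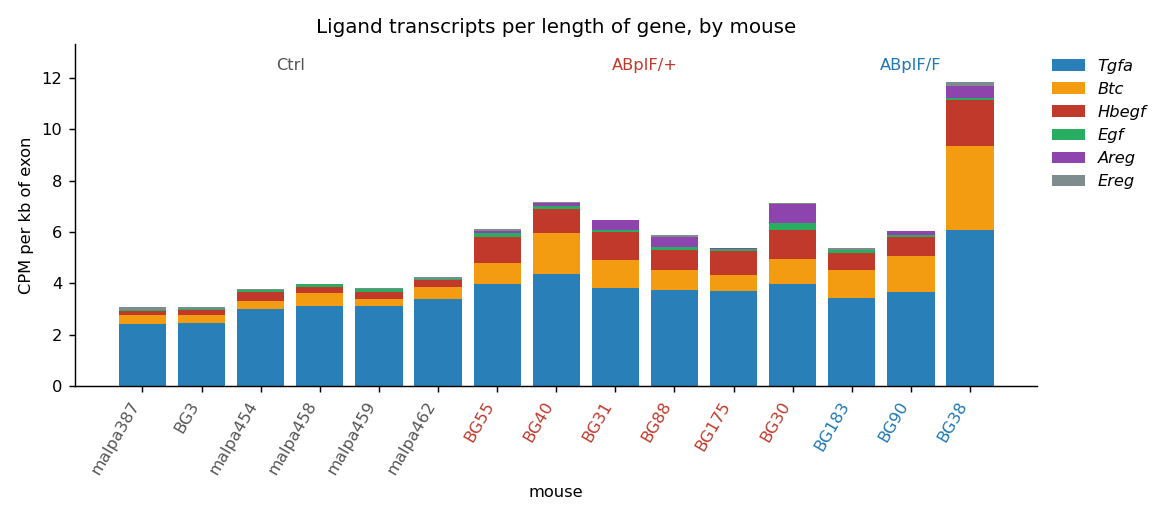
Stacked levels of the 6 ligand genes in CPM per kilobase of exon (linear axis from 0), 1 bar per mouse, with Ctrl, ABpIF/+ and ABpIF/F mice from left to right. The bars of the Ctrl mice end between 3.07 and 4.27 and those of the ABpIF/+ mice between 5.39 and 7.16, and BG38 reaches 11.8, with *Tgfa* the largest segment in every mouse.

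*Egfr* encodes the EGF receptor, to which all 6 ligands bind. Its lowest, median and highest levels were 137, 345 and 718 CPM in Ctrl and 123, 158 and 330 CPM in ABpIF/+ mice, and BG183, BG90 and BG38 had 106, 263 and 141 CPM. The Ctrl mice varied 5.24-fold among themselves, and both mutant groups overlapped with their lower part, which included malpa387 (137 CPM) and BG3 (160 CPM). The log2 change was -0.86 in ABpIF/+ vs Ctrl (standard error 0.42, 95% interval -1.77 to 0.05, edgeR adjusted p = 0.178) and -1.10 in ABpIF/F vs Ctrl (standard error 0.54, edgeR adjusted p = 0.220). With the strain label in the model, which leaves BG3 as the only Ctrl mouse compared, these became 0.33 and 0.090.

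*Erbb2* encodes the receptor that has no known ligand of its own and serves as partner of the others. Its lowest, median and highest levels were 0.530, 1.60 and 1.85 CPM in Ctrl and 0.717, 1.21 and 1.41 CPM in ABpIF/+ mice. BG183, BG90 and BG38 had 2.22, 1.97 and 5.29 CPM. All 3 ABpIF/F mice lay above the other 12, the first pair by little and BG38 by a wide margin. *Erbb2* was 2.73-fold lower in ABpIF/+ than in ABpIF/F mice (log2 fold change -1.45, standard error 0.36, edgeR adjusted p = 0.00665) and was called. Without BG38 the log2 change was -0.85 and the call was lost (edgeR adjusted p = 0.185), and it was also lost with the clock gene score in the model (-1.12, edgeR adjusted p = 0.512) and without any of the ABpIF/+ mice BG55, BG31, BG88 and BG30 (edgeR adjusted p = 0.0167, 0.0112, 0.0128 and 0.0144). Its log2 fold change of 1.20 in ABpIF/F vs Ctrl was not called (standard error 0.36, edgeR adjusted p = 0.0241), and without BG38 it was 0.60 (edgeR adjusted p = 0.479).

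*Erbb3* encodes a receptor with very weak kinase activity that binds neuregulins. It was at 43.9, 101 and 148 CPM (lowest, median and highest) in Ctrl and at 51.9, 77.6 and 151 CPM in ABpIF/+ mice, and BG183, BG90 and BG38 had 112, 90.4 and 80.2 CPM. The 3 groups shared 1 range. The log2 change was -0.15 in ABpIF/+ vs Ctrl (95% interval -0.80 to 0.50) and -0.06 in ABpIF/F vs Ctrl (95% interval -0.86 to 0.74), which leaves room for changes of less than 2-fold. Per kilobase of exon *Egfr* (32.2 ± 19.4) and *Erbb3* (16.3 ± 6.22) had overlapping ranges in Ctrl livers, and *Erbb2* was far lower (0.266 ± 0.100 CPM per kilobase, SD, n = 6). The ratio of *Egfr* to the ligand sum, both in CPM per kilobase, was 8.48 ± 4.65 in Ctrl, 2.77 ± 1.06 in ABpIF/+ and 2.21 ± 1.45 in ABpIF/F mice (SD, n = 6, 6 and 3). It ranged from 3.92 to 16.5 in Ctrl and from 1.89 to 4.19 in ABpIF/+ mice, so that these groups overlapped. In ABpIF/F mice the ratio ranged from 1.05 to 3.84, below all Ctrl mice by a small margin.

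**Figure D3:**
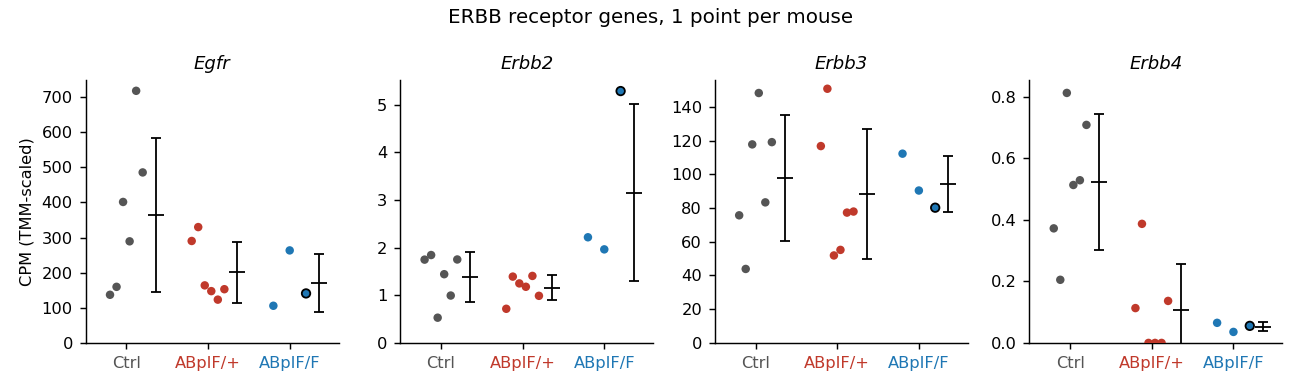
CPM (TMM-scaled, linear axis from 0) of *Egfr*, *Erbb2*, *Erbb3* and *Erbb4*, 1 point per mouse with mean ± SD beside each group (Ctrl n = 6, ABpIF/+ n = 6, ABpIF/F n = 3) and BG38 outlined in black. *Erbb2* is highest in the 3 ABpIF/F mice, BG38 reaching 5.29 CPM, the *Egfr* points of Ctrl spread from 137 to 718 CPM, and *Erbb3* overlaps in all groups.

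Counted over the 9 genes, 3 were called up and 0 down in ABpIF/+ vs Ctrl, where 4.69% of all 27179 genes were called up and 5.35% down. In ABpIF/F vs Ctrl 2 were called up and 0 down, against 4.55% and 2.38% of all genes. For ABpIF/+ vs ABpIF/F 0 were called up and 1 down, against 1.76% and 5.49%. Among the 12316 genes averaging 1 CPM or more the shares called up and down were 8.21% and 9.39%, 7.53% and 5.04%, and 3.72% and 8.5%. At an unadjusted edgeR p under 0.05 the 9 genes gave 5 up and 0 down, 5 up and 0 down, and 0 up and 2 down, and DESeq2 called 3 up, 4 up and 1 down. The groups did not overlap in CPM for 4 genes in ABpIF/+ vs Ctrl (*Areg*, *Hbegf*, *Tgfa* and *Btc*, against 15.9% of all genes). They did not overlap for 4 in ABpIF/F vs Ctrl (*Hbegf*, *Tgfa*, *Btc* and *Erbb2*, against 17.1%) and for 1 in ABpIF/+ vs ABpIF/F (*Erbb2*, against 18.7%). For *Areg* the gap was 1 read in BG175 against 0 in Ctrl. The median log2 fold changes of the 9 genes were 0.43, 0.59 and -0.13, and those of the genes averaging 1 CPM or more were 0.02, -0.00 and 0.04. The first pair of comparisons shares the Ctrl mice. With the strain label in the model both comparisons with Ctrl rest on BG3 alone, so calls kept or lost there do not measure an effect of strain. *Hbegf* then had a log2 fold change of 2.33 in ABpIF/+ vs Ctrl.

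**Figure D4:**
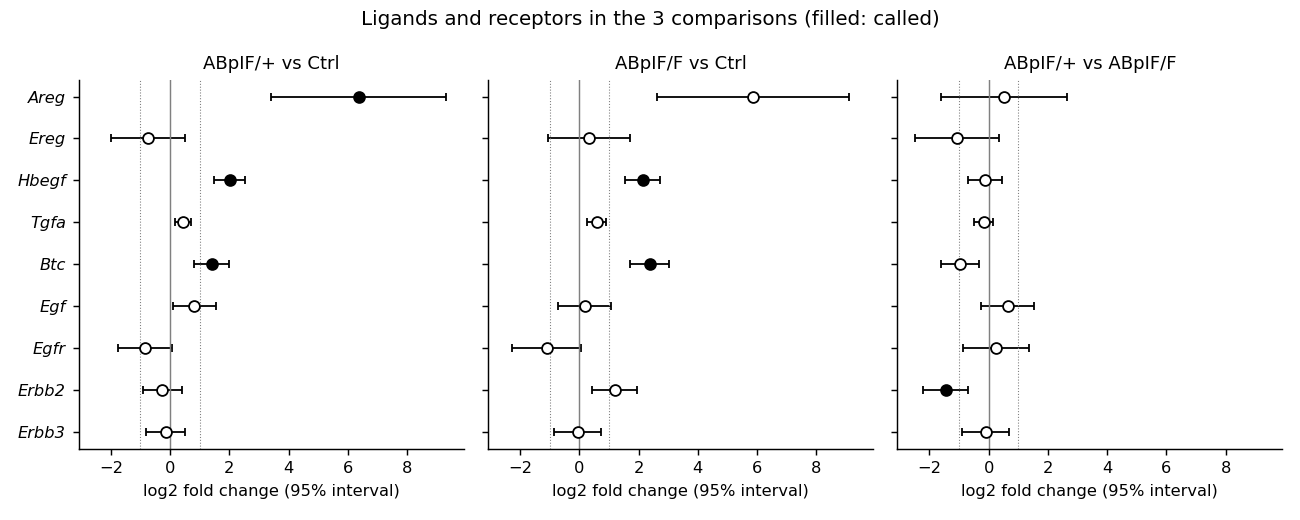
Log2 fold changes of the 9 genes with 95% intervals in the 3 comparisons, with filled points for called genes and dotted lines at the 2-fold threshold. *Hbegf* and *Btc* are filled in both comparisons with Ctrl, *Areg* in ABpIF/+ vs Ctrl, where its size depends on 0 counts in Ctrl, and *Erbb2* in ABpIF/+ vs ABpIF/F.

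Markers of other cells moved with some of these groups. Beside the counts below, 4.69% of all genes were called up and 5.35% down in ABpIF/+ vs Ctrl. The shares were 4.55% and 2.38% in ABpIF/F vs Ctrl and 1.76% and 5.49% in ABpIF/+ vs ABpIF/F. Of 15 cholangiocyte markers, 12 were called up in ABpIF/F vs Ctrl, 2 up and 2 down in ABpIF/+ vs Ctrl, and 10 down in ABpIF/+ vs ABpIF/F. Their summed level was 59.9 to 102 CPM in Ctrl, 60.4 to 192 in ABpIF/+ and 268, 866 and 1261 CPM in BG183, BG90 and BG38. Of 12 neutrophil markers, 11 were called up in ABpIF/F vs Ctrl, with sums of 2.58 to 4.57 CPM in Ctrl, 3.23 to 12.3 in ABpIF/+ and 5.42, 41.2 and 109 CPM in BG183, BG90 and BG38. Only 4 of the 12 averaged 1 CPM or more, and 4 were at 3 counts or fewer in every Ctrl mouse. BG38, the mouse with the highest *Btc*, *Hbegf*, *Tgfa* and *Erbb2*, thus had the highest sums of both lists. It also had the highest macrophage (966 CPM), stellate cell and fibroblast (430 CPM) and lymphocyte (23.1 CPM) sums of all mice. Its hepatocyte sum (170159 CPM) was the lowest of the mutant mice. Its endothelial, mast cell and exocrine pancreas sums lay within the Ctrl range. With the clock gene score in the model 2 cholangiocyte and 0 neutrophil markers were called by edgeR in ABpIF/F vs Ctrl (11 and 11 up at an unadjusted p under 0.05). In ABpIF/+ vs Ctrl 7 of 15 macrophage and 11 of 14 stellate cell and fibroblast markers were called down, with macrophage sums of 556 to 754 CPM in Ctrl and 240 to 415 in ABpIF/+, and stellate cell sums of 237 to 309 and 63.7 to 134 CPM. In ABpIF/F mice, where *Hbegf* and *Btc* were also above Ctrl, the macrophage sums were 429 to 966 CPM and the stellate cell sums 262 to 430 CPM. The part of these cells in the results was not tested.

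Of 14 hepatocyte markers 4 were called up and 2 down in ABpIF/+ vs Ctrl, and 2 up and 4 down in ABpIF/F vs Ctrl, with sums of 125361 to 165189 CPM in Ctrl, 229221 to 304889 in ABpIF/+ and 170159 to 263771 in ABpIF/F mice. Of 13 endothelial markers 3 were called down in ABpIF/+ vs Ctrl and 1 up in ABpIF/F vs Ctrl, and of 18 lymphocyte markers 4 were called down and 1 up in these comparisons. Of the lymphocyte markers, 0 averaged 1 CPM or more. Mast cell and exocrine pancreas markers gave at most 1 call in any comparison, and 7 of the 8 mast cell markers were at 3 counts or fewer in every Ctrl mouse. Of 16 clock genes 4 were called up in ABpIF/+ vs Ctrl, 5 down in ABpIF/F vs Ctrl, and 6 up and 1 down in ABpIF/+ vs ABpIF/F. Of 20 proliferation genes 10 were called down in ABpIF/+ vs Ctrl. In ABpIF/F vs Ctrl edgeR and DESeq2 called 0 of them (4 up and 3 down at an unadjusted edgeR p under 0.05), and edgeR called 1 up and 12 down in ABpIF/+ vs ABpIF/F.

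The 6 other genes of the EGF family, *Epgn*, *Nrg1*, *Nrg2*, *Nrg3*, *Nrg4* and *Erbb4*, included 2 called up in ABpIF/+ vs Ctrl, 1 up in ABpIF/F vs Ctrl and 1 up in ABpIF/+ vs ABpIF/F. The shares of all genes called up were 4.69%, 4.55% and 1.76%. *Nrg1* encodes neuregulin 1, a ligand of ERBB3 and ERBB4. It was at 0.0321 to 0.223 CPM in Ctrl, with 1 to 6 counts per mouse, at 1.09 to 2.25 CPM in ABpIF/+ mice and at 1.11, 1.54 and 2.58 CPM in BG183, BG90 and BG38. Both mutant groups were far above Ctrl, by log2 fold changes of 4.29 (standard error 0.42, edgeR adjusted p = 7.00e-08) and 4.32 (standard error 0.46, edgeR adjusted p = 5.68e-07), and they overlapped with each other.

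*Nrg4* encodes neuregulin 4, a ligand of ERBB4, and its pattern differed from that of the other ligands. It was at 4.36 to 13.4 CPM in Ctrl, at 17.5 to 35.7 CPM in ABpIF/+ mice and at 3.39, 9.90 and 7.37 CPM in BG183, BG90 and BG38. Every ABpIF/+ mouse was above all the others, and the ABpIF/F mice overlapped with Ctrl. The log2 change was 1.45 in ABpIF/+ vs Ctrl (standard error 0.28, edgeR adjusted p = 0.000944) and 2.03 in ABpIF/+ vs ABpIF/F (standard error 0.37, edgeR adjusted p = 0.00120). The Ctrl mouse malpa387, with a clock score of -5.56 near those of the ABpIF/F mice, had the lowest level of its group (4.36 CPM). Among the ABpIF/F mice the order was the reverse, a lower score going with a higher level. BG183, BG90 and BG38 had scores of -3.54, -7.06 and -4.80. The part of clock state in *Nrg4* was not tested. With the clock gene score in the model the log2 changes were 1.23 and 1.16 and both calls were lost (edgeR adjusted p = 0.0117 and 0.484). With the strain label the first was 1.39 (edgeR adjusted p = 0.200), and without BG38 the second was 2.09 (edgeR adjusted p = 0.0101).

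*Erbb4*, the receptor of several of these ligands, was barely detected. It had 5 to 23 counts in Ctrl, 0 to 10 in ABpIF/+, with 3 mice at 0, and 1 or 2 in ABpIF/F mice. The log2 fold changes against Ctrl were -2.28 and -3.22 (standard errors 0.70 and 0.98, edgeR adjusted p = 0.0171 and 0.0246) and were not called. Other methods did call them: for ABpIF/+ vs Ctrl filterByExpr, the edgeR 4 method and DESeq2 (adjusted p = 0.00856, 0.00225 and 0.00345), and for ABpIF/F vs Ctrl the edgeR 4 method, a fit on only the groups compared and DESeq2 (adjusted p = 0.00394, 0.00333 and 0.00417). Without the ABpIF/+ mouse BG40, the one with 10 counts, the former was -3.28 and passed (edgeR adjusted p = 0.00158). *Epgn* and *Nrg2* did not exceed 10 counts in any mouse, and *Nrg3* was at 0 throughout.

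Of the genes listed for the release of ligands, 12 were measured. The iRhoms *Rhbdf1* and *Rhbdf2*, inactive rhomboid proteins needed for the maturation of the protease ADAM17, were called up in both comparisons with Ctrl. *Rhbdf1* was at 6.83 to 9.60 CPM in Ctrl, at 27.7 to 37.1 CPM in ABpIF/+ mice and at 20.2, 21.7 and 32.7 CPM in BG183, BG90 and BG38. *Rhbdf2* was at 7.00 to 9.60 CPM in Ctrl, at 12.3 to 23.3 CPM in ABpIF/+ mice and at 18.2, 25.5 and 26.5 CPM in BG183, BG90 and BG38. Neither gene overlapped between Ctrl and mutant mice. The log2 fold changes of *Rhbdf1* were 2.05 and 1.67 (standard errors 0.13 and 0.15, edgeR adjusted p = 9.67e-11 and 4.20e-08) and those of *Rhbdf2* 1.05 and 1.53 (standard errors 0.15 and 0.18, edgeR adjusted p = 1.21e-05 and 1.50e-06) in ABpIF/+ and ABpIF/F vs Ctrl. The first *Rhbdf2* value was 0.93, under 2-fold, without BG55, and its edgeR adjusted p was 0.0150 with the strain label.

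*Adam19*, a protease that can shed neuregulins, fell in ABpIF/+ livers. It was at 1.06 to 1.62 CPM in Ctrl, 0.160 to 1.09 in ABpIF/+ and 2.09 to 5.26 in ABpIF/F mice, with log2 fold changes of -1.49 in ABpIF/+ vs Ctrl (standard error 0.36, edgeR adjusted p = 0.00270) and -2.68 in ABpIF/+ vs ABpIF/F (standard error 0.40, edgeR adjusted p = 6.26e-05). The former call was lost with the strain label (-1.68, against BG3 alone) and with the clock gene score (-1.51, edgeR adjusted p = 0.0111). The latter call was also lost with the clock gene score (-2.75, edgeR adjusted p = 0.0884). *Adam15*, another membrane protease of this family, was lower in ABpIF/+ than in ABpIF/F mice (3.14 ± 0.492 against 6.52 ± 1.77 CPM, log2 fold change -1.06, standard error 0.25, edgeR adjusted p = 0.00427), and this call was lost without BG31, BG175, BG90 or BG38. *Adam17*, the main protease for *Areg*, *Hbegf* and *Tgfa* products, is named after its values were seen. It was 16.5 ± 0.787 CPM in ABpIF/+, 22.0 ± 1.19 in Ctrl and 22.5 ± 1.56 in ABpIF/F mice, a difference under 2-fold with log2 fold changes of -0.42 (edgeR adjusted p = 0.00108) and -0.45 (edgeR adjusted p = 0.00438). Over the 12 genes 2 were called up and 1 down in ABpIF/+ vs Ctrl, 2 up and 0 down in ABpIF/F vs Ctrl and 0 up and 2 down in ABpIF/+ vs ABpIF/F, with medians of -0.06, 0.72 and -0.47. The shares of all genes called up and down were 4.69% and 5.35%, 4.55% and 2.38%, and 1.76% and 5.49%.

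**Figure D5:**
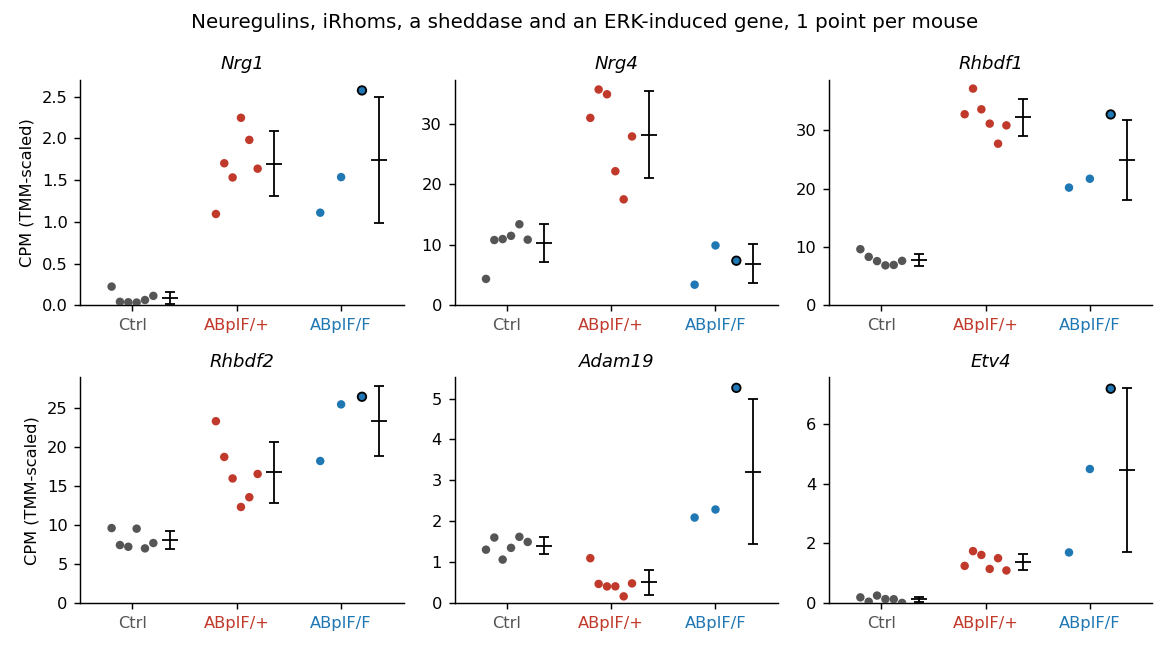
CPM (TMM-scaled, linear axis from 0) of *Nrg1*, *Nrg4*, *Rhbdf1*, *Rhbdf2*, *Adam19* and *Etv4*, 1 point per mouse with mean ± SD beside each group (Ctrl n = 6, ABpIF/+ n = 6, ABpIF/F n = 3) and BG38 outlined in black. *Nrg1*, both iRhom genes and *Etv4* are higher in all mutant mice than in Ctrl, *Nrg4* is highest in ABpIF/+ mice, and *Adam19* is highest in ABpIF/F mice.

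Of 20 genes that restrain ERBB receptors, 1 was called up in ABpIF/+ vs Ctrl, 0 either way in ABpIF/F vs Ctrl and 2 down in ABpIF/+ vs ABpIF/F, with medians of 0.04, 0.20 and -0.19. At an unadjusted edgeR p under 0.05 there were 6 up and 5 down, 7 up and 0 down, and 2 up and 6 down, and DESeq2 called 1 up in ABpIF/F vs Ctrl. Over all genes edgeR called 4.69% up and 5.35% down, 4.55% and 2.38%, and 1.76% and 5.49% in the 3 comparisons. *Socs3*, a feedback inhibitor of cytokine receptors, rose from 4.19 ± 1.12 CPM in Ctrl to 20.9 ± 15.2 CPM in ABpIF/+ mice (log2 fold change 2.31, standard error 0.49, edgeR adjusted p = 0.00301), with BG40 at 48.1 CPM, and with the strain label in the model the log2 change was 2.70 with a standard error of 1.15 and was not called (edgeR adjusted p = 0.185). *Cbl*, a ubiquitin ligase that sends the EGF receptor to degradation, and *Sh3kbp1*, an adaptor that works with it, were lower in ABpIF/+ than in ABpIF/F mice by log2 fold changes of -1.57 (standard error 0.36, edgeR adjusted p = 0.00301) and -1.67 (standard error 0.35, edgeR adjusted p = 0.00158). Both calls were lost without BG38 (edgeR adjusted p = 0.0341 and 0.0438). *Errfi1*, a direct inhibitor of the receptor kinase and named after its values were seen, was at 1121 ± 323 CPM in Ctrl, 1548 ± 338 in ABpIF/+ and 790 ± 31.2 in ABpIF/F mice. Its log2 fold change in ABpIF/+ vs ABpIF/F was 0.97, just under 2-fold (edgeR adjusted p = 0.00829).

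Of 33 adaptors and effectors, 1 was called up and 1 down in ABpIF/+ vs Ctrl, 3 up and 1 down in ABpIF/F vs Ctrl and 0 up and 3 down in ABpIF/+ vs ABpIF/F, with medians of -0.04, -0.00 and -0.01. Over all genes the shares called up and down were 4.69% and 5.35%, 4.55% and 2.38%, and 1.76% and 5.49%. The genes named here therefore stand for themselves and not for the list. *Src*, a cytoplasmic tyrosine kinase, rose from 3.10 ± 0.560 CPM in Ctrl to 7.29 ± 0.733 in ABpIF/+ (edgeR adjusted p = 1.75e-06) and 11.7 ± 2.27 in ABpIF/F mice (edgeR adjusted p = 7.35e-08). The adaptors *Nck2* and *Shc2* rose in ABpIF/F vs Ctrl by log2 fold changes of 1.32 and 4.85 (standard errors 0.21 and 0.79, edgeR adjusted p = 8.91e-05 and 0.000429), and *Pik3r1*, a regulatory subunit of phosphoinositide kinase, fell by 1.19 on the log2 scale (standard error 0.22, edgeR adjusted p = 0.000467). With the clock gene score in the model the *Nck2*, *Shc2* and *Pik3r1* values were 0.91, 6.03 and -0.37 (edgeR adjusted p = 0.0804, 0.0430 and 0.501), and with the strain label 1.37, 5.52 and -1.14 (edgeR adjusted p = 0.0283, 0.103 and 0.0381). *Plcg2*, a signalling enzyme, fell in ABpIF/+ vs Ctrl (-1.74, edgeR adjusted p = 0.000886). The strain label also ended the *Src* call (1.12, edgeR adjusted p = 0.0211) and the *Plcg2* call (-1.96, edgeR adjusted p = 0.0392) in ABpIF/+ vs Ctrl. *Plcg2* and *Pik3cd*, both best known from blood cells, were lower in ABpIF/+ than in ABpIF/F mice (log2 fold changes -2.53 and -1.98, edgeR adjusted p = 0.000163 and 2.39e-05), as was the scaffold gene *Gab2* (-1.18, edgeR adjusted p = 0.00668). The *Gab2* call was lost without BG55, BG40, BG31, BG88 or BG38. Beside them, 9 of 15 macrophage markers were called lower in ABpIF/+ than in ABpIF/F mice, and their part was not tested.

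Of 24 ERK-induced genes, 13 were called up and 1 down in ABpIF/+ vs Ctrl and 10 up and 1 down in ABpIF/F vs Ctrl, with medians of 1.68 and 1.60 (1.78 and 1.58 over 23 genes with those at 3 counts or fewer set to their bound). Over all genes the shares called up and down were 4.69% and 5.35%, and 4.55% and 2.38%. *Fos* and *Egr1*, immediate early transcription factors, rose from 0.748 ± 0.249 to 12.4 ± 4.71 CPM (log2 fold change 4.04, standard error 0.27, edgeR adjusted p = 3.71e-10) and from 15.8 ± 20.3 to 230.4 ± 167 CPM (3.86, standard error 0.82, edgeR adjusted p = 0.00311) in ABpIF/+ vs Ctrl. The *Egr1* call was lost with the strain label and with the clock gene score (5.49 and 3.55, edgeR adjusted p = 0.125 and 0.0238). *Etv4*, an ETS factor, was at 0 to 0.247 CPM in Ctrl, 1.09 to 1.74 in ABpIF/+ and 1.70, 4.50 and 7.20 CPM in BG183, BG90 and BG38. It rose in both comparisons with Ctrl (log2 fold changes 3.45 and 5.14, edgeR adjusted p = 3.46e-06 and 9.94e-08), and *Dusp5* and *Dusp4*, phosphatases of the ERK family, rose by 3.75 and 3.37 in ABpIF/F vs Ctrl (edgeR adjusted p = 4.52e-08 and 1.53e-07).

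*Ccnd1*, the cyclin D1 gene, went the other way. It fell from 140 ± 19.0 CPM in Ctrl to 7.52 ± 3.08 in ABpIF/+ (log2 fold change -4.22, standard error 0.29, edgeR adjusted p = 1.91e-08) and to 37.9 ± 8.66 CPM in ABpIF/F mice (-1.89, standard error 0.33, edgeR adjusted p = 0.000768). The latter call was lost with the strain label and with the clock gene score (-1.92 and -1.60, edgeR adjusted p = 0.0246 and 0.0542). For ABpIF/+ vs ABpIF/F 1 ERK-induced gene was called up and 2 down (median -0.10, and -0.03 with bounds). *Fos* was higher in ABpIF/+ mice by 1.45 (standard error 0.30, edgeR adjusted p = 0.00137), and *Ccnd1* (-2.33, standard error 0.30, edgeR adjusted p = 7.45e-05) and *Etv4* (-1.69, standard error 0.40, edgeR adjusted p = 0.00462) were lower. Without BG38 *Fos* was at 1.42 and *Etv4* at -1.15 and both calls were lost (edgeR adjusted p = 0.0125 and 0.110), and the *Etv4* call was also lost without BG55, BG88, BG30 or BG90. With the clock gene score in the model no gene of the pathway lists was called in ABpIF/+ vs ABpIF/F (4 up and 14 down at an unadjusted edgeR p under 0.05). The score did not overlap between these groups, so this fit cannot tell an effect of group from one of clock state.

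Across the 15 mice, *Hbegf*, *Tgfa* and *Btc*, which were higher in every mutant mouse than in Ctrl, varied together. Pearson's r of log2 CPM was 0.89 for *Hbegf* and *Tgfa*, 0.89 for *Tgfa* and *Btc* and 0.86 for *Hbegf* and *Btc*, and over deviations from the group means it was 0.85, 0.77 and 0.54. These are descriptions over mice that share groups and scaling, and r over the 15 mice follows in part from the difference between groups. BG38 was the highest of its group for each of these genes, and r without BG38 was not computed. *Egfr* and *Erbb3* had an r of 0.48, or 0.53 over deviations. Among genes averaging 1 CPM or more, the 3 most like *Hbegf* were *Abca5* (r = 0.97), *Osbpl3* (0.96) and *Agfg1* (0.96). For *Tgfa* they were *Cd2ap* (0.94), *Tes* (0.94) and *Grb10* (0.93), and for *Btc* they were *Tnfaip3* (0.96), *Cd14* (0.95) and *Fhl3* (0.94). *Egfr* was most like *Sec31a* (0.87), *Zcchc14* (0.86) and *Pcnx* (0.85), *Erbb2* most like *S100a11*, *Plekha2* and *Selenon* (0.88 each), *Erbb3* most like *Cep85l* (0.88), *Ddi2* (0.88) and *Foxn3* (0.87), and *Egf* most like *Nupl2* (0.88), *Mybbp1a* (0.83) and *Engase* (0.83).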

How the data were processed

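Total RNA from frozen liver was extracted with Trizol, and stranded mRNA libraries were read from both ends. The authors aligned reads to mm10 (HISAT2), and featureCounts 2.0.8 assigned them to genes, and the deposited values are raw counts per gene and mouse. The gene annotation and strand setting of the counting are not given in the sources used here, so reads of overlapping genes may be shared. Columns were assigned by mouse name. The labels list 23 samples for 15 mice, and 8 mice are named by 2 samples, so libraries of 1 mouse were not told apart. Genotype labels of mutant mice write *BRAF* +/+ where the design text gives *Braf*CA/+, and groups follow the group names. A second count table was identical in 10 readable columns, and 5 columns of it were not read. The authors' columns of fold changes and p-values were not used.

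Counts of all 27179 genes, 20380 of them with a read, were fitted in R 4.3.3 with edgeR 4.0.16 (quasi-likelihood F-test in the form of edgeR 3, robust, TMM) in 1 model with 3 groups, and p-values were adjusted by Benjamini-Hochberg over all genes. Log2 CPM used a prior count of 2, and correlations are descriptions. Promoters came from RefSeq (GRCm38.p6) and positions from GENCODE M21, which placed 87.9% of the genes. The 9 genes and the lists were chosen with earlier results of these data known. Of each pathway list, at most 3 called genes per comparison and direction are named, those of largest change with at least 1 CPM in a group, and all genes of the EGF family list. For each of the 9 genes averaging 1 CPM or more, the 3 genes of highest r are named. Nothing says that mice of a group came from separate litters, so p-values measure the spread between these mice. Alternatives were RLE size factors, DESeq2 1.42.0, filterByExpr, the edgeR 4 method, no robust estimation, other thresholds, fits on only the groups compared, the strain label or the clock gene score as a covariate, and leaving out each mouse. The script was tested on simulated data.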

Additional observations from a re-analysis of the deposited data

How the results depend on the processing

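The number of the 9 genes called in ABpIF/+ vs Ctrl was 3, it was 1 with the strain label as a covariate, and it was 3 without any 1 mouse. In ABpIF/F vs Ctrl it was 2, against 5 at an adjusted p under 0.05 with any fold change, 4 with DESeq2, 1 with the strain label, and 2 to 3 without any 1 mouse, *Areg* being added without BG175, BG30 or BG183. For ABpIF/+ vs ABpIF/F it was 1, against 2 at an adjusted p under 0.05, 0 at a 4-fold threshold, 0 with the clock gene score (edgeR, with 0 also at an unadjusted p under 0.05), and 0 to 2 without any 1 mouse: 0 without BG55, BG31, BG88, BG30 or BG38 and 2 without BG40 or BG183. *Areg* in ABpIF/+ vs Ctrl had an adjusted p of 0.285 with the strain label and 0.01004 with the clock score. Of the genes in the pathway lists, 22, 18 and 11 were called in these comparisons. At a 4-fold threshold (log2 change of 2) the numbers were 13, 9 and 4, and at an adjusted p under 0.05 they were 50, 38 and 26. With the strain label 11 were called in ABpIF/+ vs Ctrl, with the clock score 10 in ABpIF/F vs Ctrl and 0 in ABpIF/+ vs ABpIF/F, and without any 1 mouse 21 to 25, 16 to 21 and 5 to 14, the 5 without BG38. Over all genes 2729, 1883 and 1969 were called, against 1357, 1148 and 1927 with the strain label and 2468, 692 and 66 with the clock score, the 66 being 40 higher and 26 lower in ABpIF/+ where the main model had 478 and 1491. The cause of these shifts was not tested. In comparisons with Ctrl the strain label leaves BG3 as the only Ctrl mouse compared. The clock score did not overlap between ABpIF/+ and ABpIF/F mice, so counts with it do not separate group and clock state. For the pathway lists all alternatives but an adjusted p under 0.05, and for all genes every alternative, were chosen after seeing the data.

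Values that changed sign were all uncalled. With the strain label, and so against BG3 alone, the log2 fold changes were 0.33 (*Egfr*), 1.01 (*Erbb3*) and -0.57 (*Nrg2*) in ABpIF/+ vs Ctrl. In ABpIF/F vs Ctrl they were 0.090 (*Egfr*) and 1.10 (*Erbb3*). With the clock score they were -0.069 (*Ereg*), 0.41 (*Erbb3*) and 0.071 (*Nrg4*) in ABpIF/F vs Ctrl and -0.80 (*Egfr*) and 1.72 (*Nrg1*) in ABpIF/+ vs ABpIF/F, where filterByExpr gave 0.0025 for *Nrg1*. Without 1 mouse the log2 fold change ranged from -0.37 to 0.0054 (*Erbb3*) in ABpIF/+ vs Ctrl. In ABpIF/F vs Ctrl it ranged from -0.76 to 0.78 (*Ereg*), -0.21 to 0.10 (*Erbb3*) and -1.20 to 1.73 (*Epgn*). In ABpIF/+ vs ABpIF/F it ranged from -0.053 to 1.98 (*Areg*), -1.53 to 0.013 (*Ereg*), -0.37 to 0.48 (*Hbegf*), -0.31 to 0.14 (*Tgfa*), -0.0064 to 0.71 (*Egfr*), -0.31 to 0.050 (*Erbb3*), -0.34 to 2.66 (*Epgn*), -0.060 to 1.24 (*Erbb4*), -0.28 to 0.36 (*Nrg1*) and -1.77 to 0.036 (*Nrg2*). Of the other values of the 9 genes, 248 kept their sign and side of the threshold under other settings, 8 lost a call and 7 gained one, and without 1 mouse 380 kept them, 5 lost a call and 5 gained one. No paired analysis was possible because the labels give the groups no shared replicate numbers. The use of the second count table was not run, since its readable columns are identical. The depth limits *Areg*, *Ereg*, *Erbb4*, *Epgn* and *Nrg2*, which had at most 27 counts in a mouse.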
